A study of Mus musculus with 24 samples.

Results

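NEU-only elements are stretches of accessible chromatin that were called in the libraries labelled neutrophil (NEU) and in no other primary population of this mouse blood-forming series. ATAC-seq, in which the Tn5 transposase cuts open DNA, gave a list of peaks for each library, and a peak was kept where the second library of its group had a peak at the same place, with an overlap of at least 1 bp. The kept peaks of the 10 primary groups were merged into 203413 elements, of which 43895 were called in NEU and 2399 were called in NEU and in none of the other 9 groups, 1.18% of all elements. These 2399 members were chosen by the NEU calls themselves, so their counts, their scores and the genes beside them are given as a description, with no test. Measures that the choice did not use are set beside those of the other 9 groups, also untested, since 1 group against 9 allows an exact permutation p no smaller than 0.1. With NEU called from replicate 2 alone there were 11482 such elements and from replicate 1 alone 26527, so the count rests on asking for both libraries.

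All primary cells came from adult male C57BL6 mice with no mutation, transgene or treatment named in the labels. Lineage-negative Sca1+ cKit+ cells (LSK), common myeloid progenitors (CMP), granulocyte-macrophage progenitors (GMP), megakaryocyte-erythroid progenitors (MEP), erythroid colony-forming cells (CFUE), erythroblasts (ERY), megakaryocyte colony-forming cells (CFUMK) and immature megakaryocytes (iMK) were taken from bone marrow, and monocytes (MON) and NEU from peripheral blood, with 2 libraries per group. The study's sample list gives surface markers for MON (Ly6g-, CD11b+) but enters NEU as not sorted. Its methods state that both were isolated from blood by an earlier published procedure. G1E, a cell line without the erythroid factor GATA1, and G1E-ER4+E2, a G1E clone in which an estradiol-dependent GATA1 hybrid restores that factor, were read only as samples outside the choice of members. The library numbers of NEU, MON and LSK replicate 2 ran together and apart from those of the other 7 groups and of LSK replicate 1, so that for NEU the population and whatever those numbers mark cannot be told apart.

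Neutrophils are short-lived phagocytes that leave the marrow with their granules already filled, and factors of the CEBP family together with PU.1 guide their development. B lymphocytes, which also circulate in blood, depend on PAX5, EBF1 and E proteins, carry the CD79A and CD79B chains of the B cell receptor and MHC class II molecules on their surface, and switch on immunoglobulin genes through the octamer, a short sequence bound by OCT1 and OCT2 with a B cell coactivator. A distal element in open chromatin often carries the short sequences of the factors that hold it open. In bulk samples such as these, more cells of a type and more open chromatin per cell cannot be told apart.

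The leading gene list was not one of the label's cell type, and the lists were chosen with earlier results of these data known. Of 26 genes that define B cells, 25 had a NEU-only element in the gene body or within 20 kb of it, whereas 17 of 68 genes on 5 neutrophil lists had one, and among all 21911 protein-coding genes the share was 9.75%. The members are therefore named here by their rule, and no cell type is assigned to them. Lists of other genes that the blood could hold are given with their values further on, and the part of B cells in any of these results was not tested.

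Primary libraries held 84341 to 230877 peaks, and the NEU lists were among the shorter ones, with 108650 and 84341 peaks in replicates 1 and 2. Each peak carried a score that the deposited files do not name. Low scores rose in even steps whose size differed between libraries, so the score was taken as scaled within a library. The highest score ran from 91.8 (MON replicate 2) to 4435.7 (LSK replicate 1) over the primary libraries, and a score set across libraries shows no more than its order of size. The number of peaks a library gave is part of what makes an element NEU-only, because a longer list in another group leaves fewer elements to NEU.

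The sequences of 12 elements show what the members look like (mm10, plus strand, 5′ to 3′). Capitals mark the letters of the searched motifs within each element, on either strand. The motifs are the CEBP letters TTGCNNAA, PU.1 letters GAGGAAGT, EBF1 letters TCCCNNGGGA, the octamer (OCT) ATGCAAAT, the E2A-type E-box CAGCTG, the composite of PU.1 with IRF4 or IRF8 (EICE) GGAANNGAAA, the interferon response element (ISRE) GAAANNGAAA, NF-kB letters GGGANTTTCC, CTCF letters CCANNAGGNGGC and KLF/SP letters CCNCNCCC, with those of RUNX, GATA and AP-1 given where they first occur. The first 3 are the highest ranked distal members with a motif at B cell identity genes, which encode or feed the B cell program, and the Cd79b one is the central 300 bases of a wider element.
Pax5, chr4:44667403-44667630: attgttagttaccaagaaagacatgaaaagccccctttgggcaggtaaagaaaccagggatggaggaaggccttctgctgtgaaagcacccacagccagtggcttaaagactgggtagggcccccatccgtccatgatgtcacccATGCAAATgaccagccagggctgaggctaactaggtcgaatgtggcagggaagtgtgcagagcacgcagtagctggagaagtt
Ebf1, chr11:44775615-44775834: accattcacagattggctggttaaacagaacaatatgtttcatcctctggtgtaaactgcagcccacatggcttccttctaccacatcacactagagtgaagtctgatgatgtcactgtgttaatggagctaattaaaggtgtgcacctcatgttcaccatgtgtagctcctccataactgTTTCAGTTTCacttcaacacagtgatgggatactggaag
Cd79b, chr11:106310039-106310338: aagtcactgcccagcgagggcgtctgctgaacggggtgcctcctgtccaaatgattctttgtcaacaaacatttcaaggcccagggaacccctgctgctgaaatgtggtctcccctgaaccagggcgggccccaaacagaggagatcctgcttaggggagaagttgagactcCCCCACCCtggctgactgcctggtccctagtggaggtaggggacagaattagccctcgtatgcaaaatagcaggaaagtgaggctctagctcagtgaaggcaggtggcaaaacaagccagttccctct

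Pax5 encodes the factor that commits cells to the B lineage, and its element held an octamer. Ebf1 encodes the factor that acts before and beside PAX5, and its element held an ISRE. The same choice at the neutrophil lists gave, among others, elements at Clec4d (a C-type lectin receptor) and C5ar1 (the receptor of complement C5a). The capitals in the Clec4d element are the RUNX letters TGTGGTT.
Clec4d, chr6:123266424-123266593: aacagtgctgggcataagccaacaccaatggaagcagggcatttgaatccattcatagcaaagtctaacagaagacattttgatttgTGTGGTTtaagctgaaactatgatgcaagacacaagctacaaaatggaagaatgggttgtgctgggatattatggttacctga
C5ar1, chr7:16263097-16263262: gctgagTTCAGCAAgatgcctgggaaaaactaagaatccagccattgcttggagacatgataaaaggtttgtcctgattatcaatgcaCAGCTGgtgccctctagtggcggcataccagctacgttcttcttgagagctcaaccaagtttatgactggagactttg

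The C5ar1 element held the CEBP letters and an E-box. The highest ranked distal members with a motif over the whole genome lay nearest to H2-Eb1 (the beta chain of an MHC class II molecule), Lrrk2 (a kinase expressed in several leukocytes) and Bckdha (a subunit of the branched-chain keto acid dehydrogenase). The Lrrk2 one was 38778 bp from a start of that gene and between genes, outside the 20 kb window. Elements that touch an untranslated region were passed over in this choice.
H2-Eb1, chr17:34301216-34301420: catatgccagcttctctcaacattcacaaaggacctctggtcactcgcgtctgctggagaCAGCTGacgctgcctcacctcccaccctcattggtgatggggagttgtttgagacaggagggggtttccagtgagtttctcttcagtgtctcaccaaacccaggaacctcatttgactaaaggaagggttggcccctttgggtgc
Lrrk2, chr15:91634322-91634472: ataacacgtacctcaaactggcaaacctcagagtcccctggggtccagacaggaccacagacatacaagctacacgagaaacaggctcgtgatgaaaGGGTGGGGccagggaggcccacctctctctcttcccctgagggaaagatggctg
Bckdha, chr7:25636491-25636693: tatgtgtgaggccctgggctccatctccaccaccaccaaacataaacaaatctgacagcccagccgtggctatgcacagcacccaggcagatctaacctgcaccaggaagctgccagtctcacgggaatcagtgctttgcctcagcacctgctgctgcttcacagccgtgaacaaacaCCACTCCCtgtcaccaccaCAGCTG

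A further 4 sequences were chosen after their values were seen. They show the EBF1 palindrome in a pair of strong members beside Chst11 and Neurl3, and the octamer in a pair in the immunoglobulin kappa locus. The kappa pair lay 58 bp from the V segment Igkv4-58 and 1104 bp from Igkv13-82, a V pseudogene. The Igkv4-58 element also held CEBP and PU.1 letters and, on the minus strand, the GATA letters AGATAA.
Chst11, chr10:82964556-82964798: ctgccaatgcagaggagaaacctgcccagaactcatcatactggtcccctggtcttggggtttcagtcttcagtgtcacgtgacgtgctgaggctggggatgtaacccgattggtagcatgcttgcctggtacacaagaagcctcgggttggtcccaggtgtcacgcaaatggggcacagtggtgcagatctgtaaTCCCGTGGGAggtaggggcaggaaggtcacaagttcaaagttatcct
Neurl3, chr1:36281936-36282100: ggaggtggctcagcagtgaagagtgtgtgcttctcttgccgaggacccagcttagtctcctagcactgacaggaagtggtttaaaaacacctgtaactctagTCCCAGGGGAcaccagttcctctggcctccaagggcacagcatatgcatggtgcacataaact
Igkv4-58, chr6:69500109-69500282: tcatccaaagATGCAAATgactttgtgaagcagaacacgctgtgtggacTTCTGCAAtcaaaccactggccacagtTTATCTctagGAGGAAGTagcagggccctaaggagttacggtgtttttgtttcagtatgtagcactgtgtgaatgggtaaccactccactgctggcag
Igkv13-82, chr6:68978019-68978169: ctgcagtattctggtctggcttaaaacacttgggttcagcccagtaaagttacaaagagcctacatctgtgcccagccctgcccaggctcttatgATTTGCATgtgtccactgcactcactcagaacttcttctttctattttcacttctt

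NEU had the fewest elements of its own among the 10 groups. The other groups had 3441 (LSK) to 12054 (GMP), and MON had 4820. As a share of each group's own calls the order was different, since the 2399 members were 5.47% of the NEU elements, and the other groups ranged from 4.07% in CFUMK to 10.8% in MEP (8.02% ± 2.32, SD over 9 groups). By contrast 15789 NEU elements, 36.0%, were called in all 10 groups.

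The members were narrow and mostly far from gene starts. Their median width was 185 bp against 322 bp for all NEU elements, and together they covered 0.489 Mb. Elements called in a single other group had median widths of 166 bp (CFUMK) to 215 bp (MON), so narrowness was not particular to NEU. By the place of the centre, 364 (15.2%) lay within 1 kb of an annotated transcript start (called promoter here), 113 (4.71%) in another exon, 1154 (48.1%) in an intron and 768 (32.0%) between genes. Of all NEU elements 40.3% lay at promoters. The promoter share of elements called in a single group was 16.9% ± 4.50 (SD) over the other 9 groups, from 13.5% in MEP to 27.0% in CFUE, so the NEU value was within their spread. With NEU called from replicate 1 alone it was 9.70%.

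Members were found on every chromosome. They made up 0.454% of the elements on chromosome X and 1.58% of those on chromosome 15, the lowest and highest shares among the autosomes and X. A member had another within 10 kb in 530 cases, 22.1%. Of non-overlapping 100 kb bins, 3 held 6 members each. They lay over Pax5 (chr4:44600001-44700000, where 9 elements were called in NEU), over Irf8 (chr8:120700001-120800000, 11 NEU elements) and over Celf4, a neuronal RNA-binding protein gene on chromosome 18 with 9 NEU elements. Bins over Foxo1, a factor that B cells need in development, and over Serpini1, a serine protease inhibitor gene, held 5 each.

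Peak scores of the members were in the middle of the NEU lists. The median score was 8.52 in NEU replicate 1 (5th to 95th percentile 3.15 to 27.3) and 7.74 in replicate 2 (4.04 to 22.5), which put the median member at the 61.7th percentile of the replicate 1 list and the 43.3rd of the replicate 2 list. NEU elements shared with 1 to 8 other groups had medians of 11.8 and 10.1, and those shared with all groups 29.6 and 26.9. Across the 2399 members the scores of both NEU libraries had a Spearman rho of 0.746, a description over regions that had to be called in both.

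**Figure D1:**
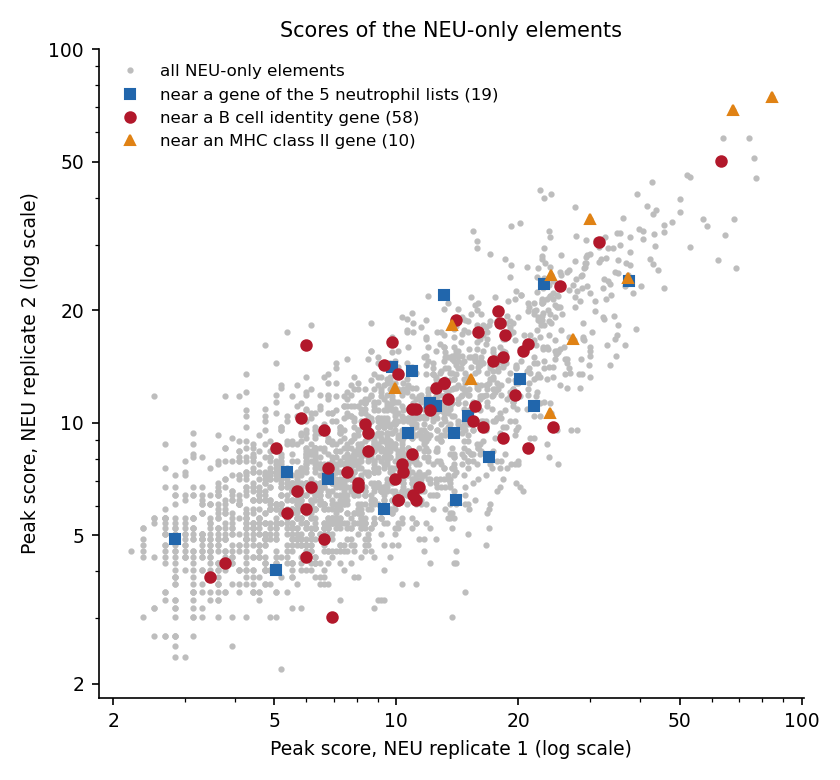
Peak score of each NEU-only element in NEU replicate 1 (x) and NEU replicate 2 (y), both log scales, with the 58 elements near a B cell identity gene, the 10 near an MHC class II gene and the 19 near a gene of the 5 neutrophil lists marked over all 2399. The highest point in both libraries, 84.4 and 74.7, is an MHC class II element, and the marked B cell identity points run from 3.47 to 63.1 in replicate 1.

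The 12 highest ranked members, ordered by the lower of their percentiles in both NEU lists, began with MHC class II genes. The first lay 102 bp from a start of H2-DMb2 (chr17:34145054-34145213), a chain of the molecule that loads peptides onto MHC class II, and scored 84.4 in NEU replicate 1 and 74.7 in replicate 2. The second, the element printed above at 4549 bp from a start of H2-Eb1, scored 67.8 and 68.8. Neither had a peak in any of the other 22 libraries.

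The promoter element of Cd79a (chr7:24897145-24897443), the B cell receptor's alpha signalling chain, scored 63.1 and 50.1 and had no peak elsewhere. Members beside Bckdha (52 and 46.1) and 10933 bp from Btg1, an antiproliferative gene abundant in lymphocytes (39.3 and 40.9), also had no peak in any other library. The remaining 7 of the 12 had peaks in 1 to 4 other libraries.

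Those 7 lay nearest to Ripor2 (64 and 57.9), Lrrk2 (74 and 57.7, at 38778 bp), Rbm38 (76.3 and 51.1), Lmo2 (53 and 45.6, at 62711 bp), Abcg1 (77 and 45.3), Shank1 (42.7 and 44.1) and Noa1 (50.1 and 39.7). The highest score in another library was 19.2, at the Rbm38 element in G1E replicate 2, and 15.1 there in iMK replicate 2. None of the 12 was in the window of a gene on the neutrophil lists, which held 0.792% of all members. At the other end, the lowest ranked member was 308283 bp from Abra and scored 5.2 and 2.19.

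B cell identity genes carried the most complete set of members. The 25 genes with an element held 58 of them, 2.42% of the members, and 28.2% of the 206 NEU elements in these windows were called in no other group. Ralgps2 alone had none. Scores of the 58 ran from 3.47 to 63.1 (median 10.9) in NEU replicate 1 and from 3.03 to 50.1 (median 9.76) in replicate 2. In the other libraries 36 of the 58 had no peak in any of the 18 of primary groups, and the highest score was 8.49, at the Cd72 promoter in CFUMK replicate 2. Of all members 51.6% had no peak in those 18, and so had 14 of the 19 at neutrophil list genes. A lack of other peaks was thus not particular to B cell identity genes. MON replicate 1 had a peak at 10 of the 58 (17.2%) and MON replicate 2 at 1 (1.72%), against 14.8% and 8.46% of all members. Of the 58, 16 lay at a promoter of some gene, 2 in an exon, 28 in an intron and 12 between genes.

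At 12 of the 26 genes a member lay at a start of the gene itself. Fcer2a, the low-affinity IgE receptor CD23, had one (chr8:3694198-3694425) that scored 31.7 and 30.5 in NEU replicates 1 and 2, and Cd22, an inhibitory lectin of B cells, had one at 18.3 and 9.08. Neither had a peak in another library.

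The start elements of Cxcr5, the chemokine receptor that leads B cells to follicles (14 and 18.8), Vpreb3, a chaperone of the B cell receptor (16.4 and 9.76), and Fcrla, an Fc receptor-like protein of B cells (13.1 and 12.8), also had no peak elsewhere. Tnfrsf13b, the receptor TACI (11.2 and 10.9), and Fcmr, the IgM Fc receptor (10.1 and 6.22), showed the same. The start elements of Blk, a B cell Src-family kinase (9.3 and 14.3), Pax5 (8.36 and 9.93) and Cd72 (24.3 and 9.76) had peaks of 1.83 to 8.49 in 1 to 4 other libraries.

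Pax5 had the most members of any gene on the lists, 10 over the stretch chr4:44667403-44713292, against 1 MON-only, 1 iMK-only and 3 GMP-only elements in the same window. Their scores in NEU replicate 1 ran from 5.36 to 25.4, and the strongest was the octamer element printed above. Peaks reached 3.66 in other libraries, most often in MON replicate 1. Ebf1 had 6 members, all in introns, with scores of 3.47 to 18.5, and 4 of the 6 had no peak in any other library. Cd79b, the beta signalling chain of the B cell receptor, had 4 members at 17.3 and 14.6, 20.5 and 15.6, 19.6 and 11.9, and 8.52 and 8.41, of which the second had a peak of 5.33 in MON replicate 2.

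Genes with more distant members included Bach2, a repressor that keeps B cells from becoming plasma cells, with 3 between genes, Cr2, the complement receptor CD21 (15.6 and 11.1), Ms4a1, which encodes CD20 (6.94 and 3.03), and Pou2af1, the octamer coactivator (5.99 and 5.89). Btla, an inhibitory receptor of lymphocytes, had a pair of exon elements at 18 and 18.5 and at 17.8 and 19.9. The element in the Spib window, 21.1 and 16.3, was nearest to Pold1, so that the gene it belongs to is uncertain.

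Signalling and antigen presentation genes followed. Of 24 B cell receptor signalling genes, 15 had members (37 elements, 13.8% of the 268 NEU elements in the windows), with 6 each at Vav2, an exchange factor downstream of the receptor, and Itpr2, a calcium release channel, and 4 each at Rasgrp3 and Prkcb. Of 10 MHC class II genes, 7 had members (10 elements, 19.6% of 51). Windows of neighbours overlap, so H2-Aa and H2-Eb1 shared the same 2 elements, and H2-DMa, H2-DMb1 and H2-DMb2 the same 3. Ciita, the master regulator of MHC class II, had 4, of which the strongest scored 30 and 35.2 (chr16:10516140-10516302), and H2-Oa had one at its start (13.7 and 18.3). Genes shared between lists (Blk, Blnk, Bank1, Cd22, Cd72) count in each. Together the 3 lists held 55 genes, 42 of them with members, and 97 elements.

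Genes of the 5 neutrophil lists held few of the members. Even so, 17 of the 68 genes (25%) had one, against 9.75% of all protein-coding genes. None of the 50 highest ranked members lay near a gene of these lists and 2 near a B cell identity gene, while among the 100 highest ranked each set had 2. Over all members the shares were 0.792% and 2.42%, so these small counts set neither list apart by rank. The median rank percentile was 57.6 for the members at neutrophil list genes and 53.4 for those at B cell identity genes. The 5 lists of 68 genes held 19 members, 0.792% of all, and 5.85% of the 325 NEU elements in their windows were called in no other group, close to the 5.47% over all NEU elements. Of the 325, 86.5% were called also in iMK, 82.8% in CFUMK, 80.3% in GMP and 66.8% in MON, each under the share over all NEU elements (89.0%, 87.4%, 86.1% and 74.4%). Of the 206 NEU elements in B cell identity windows, 58.7% were called also in iMK and 53.9% in MON.

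Granule protein genes, which neutrophils transcribe in the marrow, had members at 4 of 14. Their scores were low in the NEU lists, at Ngp (5.36 and 7.4, with peaks in 9 other libraries), Mmp9 (9.3 and 5.89), Lyz2 (5.05 and 4.04) and Chil3 (2.84 and 4.88). The Ngp element lay at a start of the neighbouring Ptpn23. None of these 4 elements was at a start of its list gene.

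Surface receptors had members at 5 of 22 genes. Clec4d and its neighbour Clec4e, lectins that sense microbes, shared the element printed above (13.1 and 22). C5ar1 (20.2 and 13.1) had a peak of 13.5 in ERY replicate 1, whereas Ptafr, the receptor of platelet-activating factor (21.8 and 11.1), and Csf3r, the receptor of the granulocyte growth factor G-CSF (14 and 6.22), had none in another library. None lay at a start of its gene. Asking for no peak in the 18 other primary libraries left 2 receptor genes with a member, calling MON or CFUMK from replicate 2 alone left 3, and calling NEU from 1 library gave 12.

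Secreted and cytosolic products had the most among the neutrophil lists, with 6 of 16 genes and 8 elements (8.79% of 91). Il1b, the inflammatory cytokine interleukin-1 beta, had 4, at 12.1 and 11.3, 10.9 and 13.8, 9.78 and 14.1, and 15 and 10.4. S100a8 and S100a9, the calcium-binding pair that fills the neutrophil cytosol, shared one (13.9 and 9.42). None of these 5 elements had a peak in any other library.

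Acod1, the itaconate-making enzyme of activated myeloid cells (23.2 and 23.6), and Anxa1, an anti-inflammatory annexin (6.78 and 7.07), had members at their starts, the only neutrophil list genes that did, and Wfdc21 had one at 16.9 and 8.08. The 10 granulocyte transcription factor genes had 1 member, at Spi1, which encodes PU.1 (12.5 and 11.1), with no peak in any other library. The phagocyte oxidase list had members at 1 of 6 genes.

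**Figure D2:**
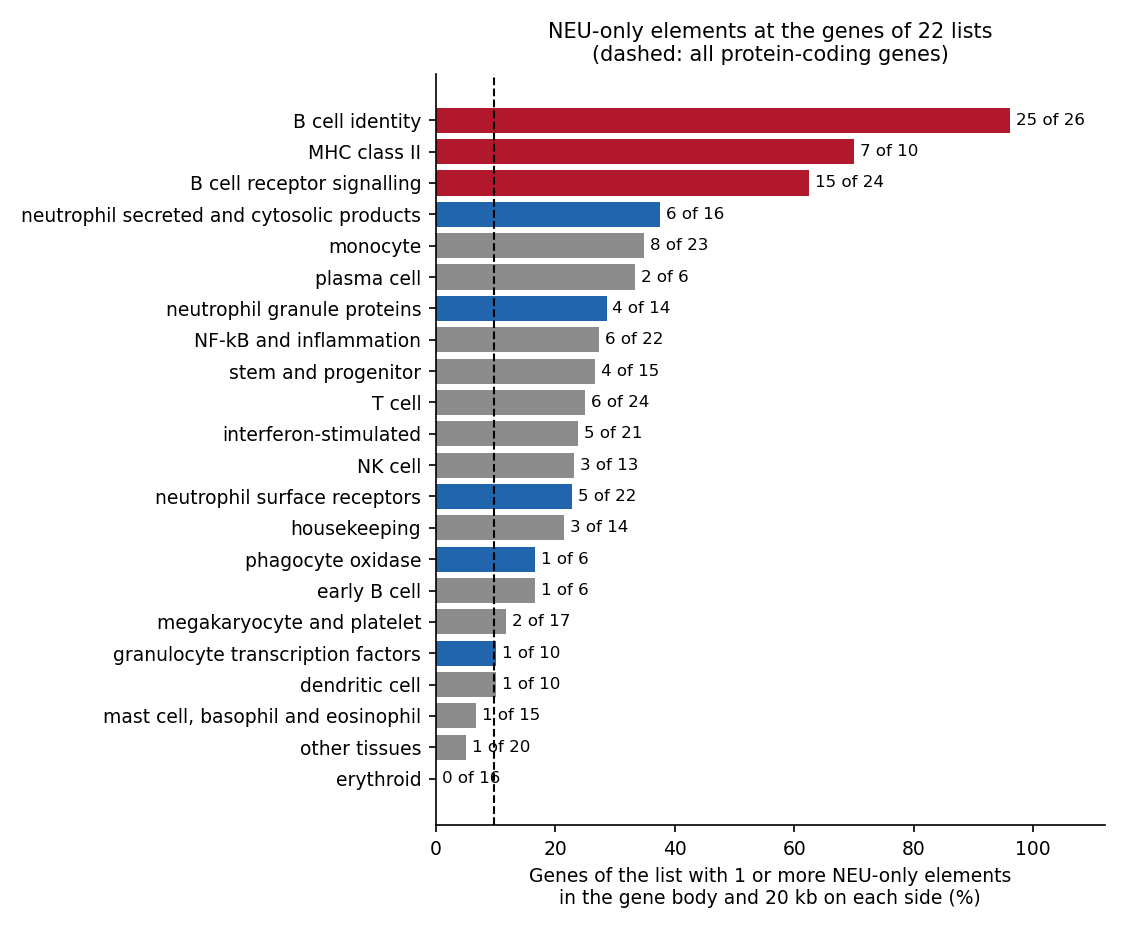
Share of genes (%) with 1 or more NEU-only elements inside the gene or up to 20 kb from it, for each of 22 gene lists, red for the 3 B cell and MHC class II lists, blue for the 5 neutrophil lists and grey for the rest; the dashed line is the 9.75% of all protein-coding genes. B cell identity stands at 25 of 26 genes, and the neutrophil lists lie between 1 of 10 and 6 of 16.

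The other lists lay between 0 of 16 genes and 8 of 23. T cell genes had members at 6 of 24 (among them Ccr7 with 2, and Cd8a, Cd4 and Ctla4), NK cell genes at 3 of 13 (Klrd1, Klrk1 and Tbx21), monocyte genes at 8 of 23 and dendritic cell genes at 1 of 10 (Tcf4). Irf8, a factor of both monocytes and B cells, had 6 elements with 1 at a start. Plasma cell genes had 2 of 6, Irf4 and Prdm1, and the early B cell list 1 of 6, Rag2.

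Inflammatory NF-kB genes had 6 of 22, with 3 elements each at Tnf and Nfkb1 and 1 at the Nfkb2 start, and interferon-stimulated genes had 5 of 21. Stem and progenitor genes had 4 of 15, megakaryocyte and platelet genes 2 of 17 (Itgb3 with 3 and Fli1), mast cell, basophil and eosinophil genes 1 of 15 (Prg2) and erythroid genes 0 of 16. Housekeeping genes had 3 of 14 and genes of other tissues 1 of 20 (Pax6). In all, 19 of the 22 lists had a share above 9.75%, so a share slightly above that value is not particular to a list.

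The same reading was made for each group. B cell identity genes with an element called in a single group numbered 25 of 26 for NEU, and 5 (ERY) to 13 (GMP) for the other 9. Against the share of all protein-coding genes, which was 12% in LSK, 23.5% in CMP, 37.8% in GMP, 27.5% in MEP, 18.3% in CFUE, 16% in ERY, 21.1% in CFUMK, 24.6% in iMK and 16.3% in MON, the list's share was 9.86 times as high in NEU and 1.12 (MEP) to 2.24 times (LSK) as high elsewhere. For the 68 neutrophil genes the ratio was 2.56 in NEU and 2.57 in iMK, where 43 genes had an iMK-only element. MON had 12 such genes, a ratio of 1.08. Each ratio has a ceiling that falls as the share over all protein-coding genes rises, so NEU, with the lowest such share, could reach the highest ratio.

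**Figure D3:**
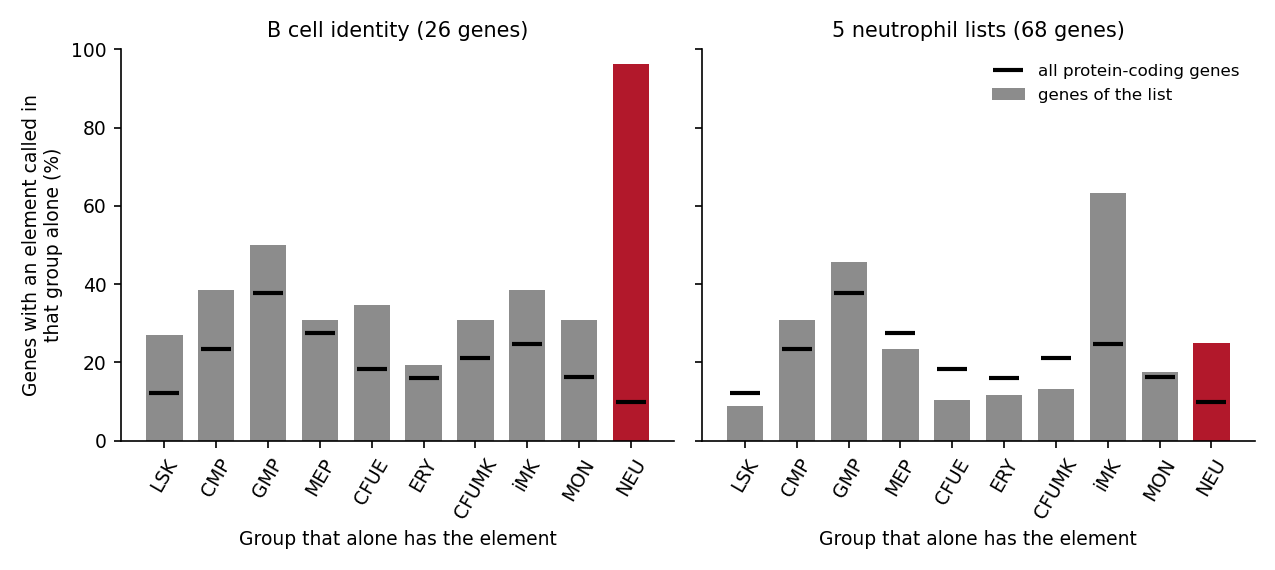
Share of the 26 B cell identity genes (left) and of the 68 genes of the 5 neutrophil lists (right) with an element called in 1 group alone, for each of the 10 primary groups as bars (NEU in red), with the share of all protein-coding genes as a black mark. NEU reaches 96.2% on the left, and iMK, with 63.2%, is the highest bar on the right.

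Peaks at gene starts, counted in each library with no use of the NEU-only rule, gave the level of the marker lists themselves. Of the 26 B cell identity genes, 25 and 24 had a peak within 1 kb of a start in NEU replicates 1 and 2. The other 18 primary libraries had 7 to 20. The share of all protein-coding genes with a start peak was not counted per library, so these counts have no background beside them. Of the 20 genes of other tissues, 2 to 3 had a start peak in the NEU libraries and 2 to 8 in the other 18. Summed scores were 880 and 656.05 in NEU against 94.67 to 635.1 (GMP replicate 1). Scores are scaled within a library, so the step from 635.1 to 656.05 was not read as a separation. Ccr6 was without a peak in both NEU libraries. This list and the members share the same NEU peaks, so this is not independent evidence.

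Neutrophil markers were present in NEU and none of the 5 lists had its highest summed score there. Granule genes had a start peak at 6 and 8 of 14 in NEU, with Elane, Ctsg, Ltf, Camp, Ngp and Lcn2 at none in either library, against 3 to 14 elsewhere, and summed scores of 110.72 and 104.3 against 23.35 to 658.09. Receptors had 18 and 16 of 22 (6 to 21 elsewhere), with Ly6g and Cd177 lacking in replicate 2 and Fpr1, Fpr2 and Mrgpra2a in both. Secreted and cytosolic products had 15 of 16 in both libraries (3 to 15 elsewhere).

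Summed scores of the receptors were 518.27 and 469.08 in NEU replicates 1 and 2, against 194.57 and 179.31 in MON and 947.9 and 873.16 in iMK. Those of the secreted and cytosolic products were 491.05 and 428.3, against 93.71 and 90.7 in MON and 783.41 and 657.15 in iMK. The oxidase genes had a start peak at 6 and 5 of 6 and sums of 298.09 and 267.9 (146.28 and 155.41 in MON), and the granulocyte factors had one at 10 of 10 in both and sums of 512.4 and 630.32 (236.01 and 209.72 in MON). For these 4 lists NEU thus lay above MON and below iMK. The granule genes had the same order, with sums of 86.06 and 57.83 in MON and 538.89 and 524.44 in iMK. The highest score of any peak was 98.1 and 91.8 in the MON libraries against 470.4 and 384.1 in NEU, and the part of scale in these gaps was not tested.

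T cell genes had 20 and 12 of 24 in NEU (6 to 18 elsewhere), with Cd3e, Cd3g, Cd4 and Tcf7 at none in both, NK cell genes 6 and 4 of 13 (0 to 10) and monocyte genes 15 and 14 of 23 (3 to 22). The part of B cells, or of any other cell type in blood, in the NEU-only elements was not tested.

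Without any list, the protein-coding genes with the most members were again led by Pax5 once a read-through gene model was set aside. That model, Gm20388, spans 4434.88 kb of chromosome 8, includes Irf8 and held 16 members, fewer than its 39 iMK-only and 47 GMP-only elements. After Pax5 came Foxp1, a forkhead factor that B cells need in development (9 members against 1 MON-only, 5 iMK-only and 3 GMP-only), Bcar3, a signalling adaptor (7), Celf4 (7), Irf8, Cxcr5, Vav2, Trio, Ebf1, Itpr2 and Gm20696, which overlaps Foxp1, each with 6.

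Of these 12, Pax5, Cxcr5 and Ebf1 were on the B cell identity list, Vav2 and Itpr2 on the receptor signalling list, Irf8 on the monocyte list and none on a neutrophil list. In all 2136 protein-coding genes had 1 or more members in their windows, 439 had 2 or more and 45 had 4 or more. Among those 45 the neutrophil lists gave Il1b, and Cd79b and Ciita were there too.

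Antigen receptor loci held a dense run of members at the light chains. The immunoglobulin kappa locus (chr6:67555497-70726966) had 50 elements, of which 29 were called in NEU and 21 in NEU alone, while the other groups had 0 to 2 of their own. The lambda locus (chr16:19061618-19260859) had 14 elements, 11 called in NEU and 5 in NEU alone, with none for any other group alone. The heavy chain locus did not look alike, with 1 NEU-only element among 215, against 19 iMK-only and 13 GMP-only. The T cell receptor loci held 0 (alpha and delta, among 263 elements), 1 (beta, among 105) and 0 (gamma, among 14).

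Scores of the 21 kappa members ran from 2.68 to 23.5 (median 6.47) in NEU replicate 1 and from 3.7 to 16 (median 6.56) in replicate 2. Of the 21, 17 had no peak in the 18 other primary libraries, where 51.6% of all members had none. The highest was the element at Igkv4-58. An octamer stood in 8 of the 21, and in 6 of the 15 that lay in or within 150 bp of a V segment, against 215 of all 2399 members (8.96%). None of the 5 lambda members had one. V segments are near copies of each other and the reads were trimmed to 30 bp, so which copy an element belongs to is uncertain. The study says of its pipelines in general that reads could map to duplicated places, and its ATAC-seq steps do not repeat it. With NEU called from replicate 2 alone there were 27 kappa members and from replicate 1 alone 72. Without the lower scoring 50% of each peak list there were 5. The kappa locus was singled out after its values were seen.

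Sequence was not used to choose the members, and for 4 of 13 motifs NEU had the highest share of the 10 groups. The search took 200 bp about the centre of the 2035 members that were not at a promoter (distal), with the same windows of the other groups' own distal elements, windows moved by 10 kb to each side and all 156632 distal elements beside it. The octamer stood in 8.5% of distal members (173), against 0.7% (iMK) to 1.22% (GMP) in the other 9 groups (0.949% ± 0.167, SD), 1.5% of the moved windows and 1.14% of all distal elements. With NEU called from replicate 2 alone or replicate 1 alone the share was 2.55% and 2.05%. The octamer was looked at after the values were seen.

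The EBF1 palindrome stood in 2.36% (48) against 0.261% (iMK) to 0.566% (ERY) in the other groups (0.388% ± 0.122, SD), 0.442% of moved windows and 0.420% of all distal elements. With NEU replicate 2 or replicate 1 alone it was 1.21% and 0.939%. NF-kB letters stood in 1.33% (27) against 0.0918% (CFUMK) to 0.422% (LSK), 0.246% of moved windows and 0.248% of all. The E-box CAGCTG stood in 17.8% against 11.7% (iMK) to 16.4% (LSK), 8.85% of moved windows and 14.04% of all. For these 3 and the octamer NEU was the highest of the 10 groups and did not overlap the other 9.

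CEBP letters, of the factors that guide granulocyte development, stood in 8.26% of distal members (168), close to the 7.59% of moved windows and under the 12.1% of all distal elements. The other groups ran from 5.37% (ERY) to 22.0% (GMP), and iMK had 13.4%. In 10 of the 168 members every CEBP match overlapped an octamer. PU.1 letters, shared by myeloid and B cells, stood in 6.0% against 1.33% of moved windows, 0.836% (MEP) to 10.6% (GMP) in the other groups and 7.31% of all distal elements.

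The composite of PU.1 with IRF4 or IRF8 stood in 4.03% (1.06% to 6.59% elsewhere, 1.72% of moved windows), the ISRE in 4.13% (1.04% to 5.14%, 3.00%), AP-1 letters (TGANTCA) in 8.01% (6.03% to 11.95%, 6.07%), RUNX letters in 9.24% (3.55% to 15.4%, 5.11%), KLF/SP letters in 22.1% (17.5% to 24.3%, 16.1%) and CTCF letters in 0.983% (0.341% to 4.09%, 0.147%). All 6 were within the range of the other groups. GATA letters, of the erythroid and megakaryocytic factors, stood in 6.39%, under the 11.4% of moved windows and far from the 37.3% of MEP. The GC content of the windows (median 48.5%) was inside the range of the other groups, 47.5% to 50.5%, while a CpG was present in 88.0% against 81.0% to 87.4%.

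**Figure D4:**
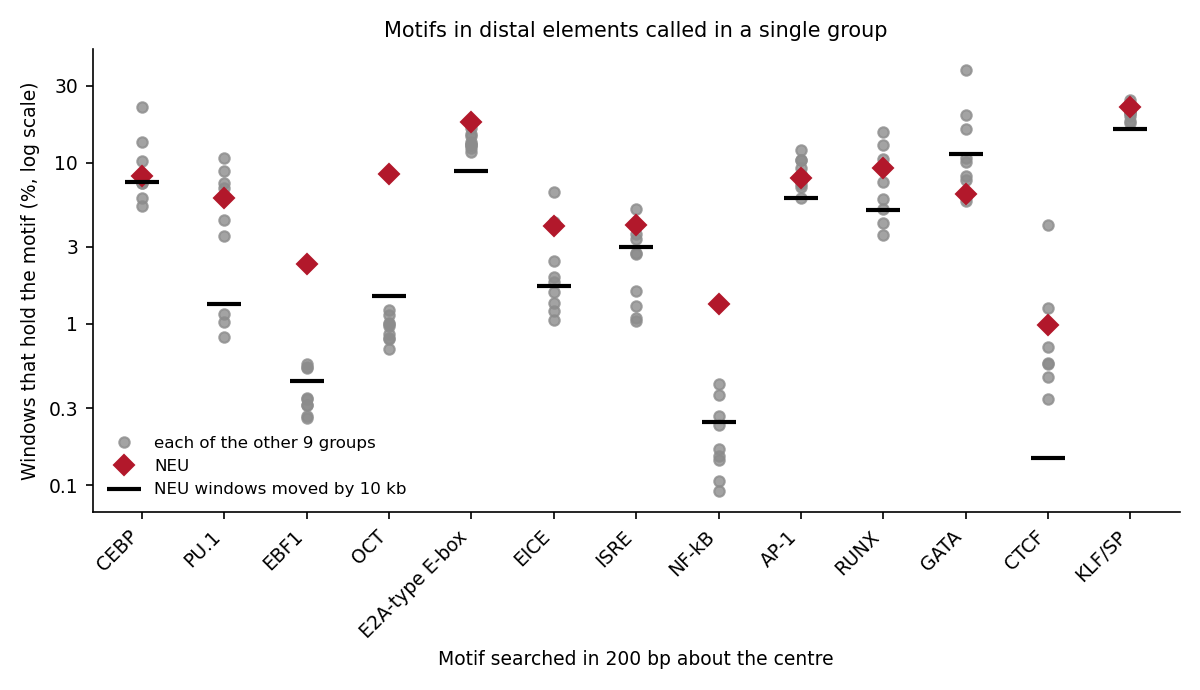
Share of distal windows of 200 bp (%, log scale) that hold each of 13 motifs, for elements called in NEU alone (red diamond), in each of the other 9 groups alone (grey points) and for the NEU windows moved by 10 kb (black mark). NEU lies above all 9 other groups for the octamer (8.5%), EBF1 (2.36%), NF-kB (1.33%) and the E-box (17.8%), and among them for CEBP (8.26%).

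Within the members the octamer was spread widely. It stood in 10.6% of the 1017 distal members of higher score rank and in 6.39% of the 1018 of lower rank, in 9.34% of the 364 members at promoters, in 5 of 42 distal members at B cell identity genes and in 2 of 14 at neutrophil list genes. EBF1 letters stood in 2.95% and 1.77% of the members of higher and lower rank, in 2.75% of those at promoters and in none of the 42 at B cell identity genes.

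Elements called in NEU and 1 other group are the nearest to the threshold on the outside. Of 1245 such elements, 505 (40.6%) were shared with iMK, 256 (20.6%) with MON, 124 with GMP, 105 with LSK, 99 with CMP, 94 with CFUMK, 31 with MEP, 21 with ERY and 10 with CFUE. Of the 220 distal ones shared with MON alone, 10.0% held an octamer and 2.27% EBF1 letters, near the values of the members. Of the 412 shared with iMK alone, 2.43% and 0.971% did.

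Just inside the threshold, a member may have a peak in 1 replicate of another group. In the 18 other primary libraries, 1237 members (51.6%) had no peak at all, 646 (26.9%) had a peak in 1 and 516 (21.5%) in 2 or more. MON replicates 1 and 2, the other blood population, had peaks at 14.8% (354) and 8.46% (203) of the members. iMK had 5.38% and 10.2%, GMP 6.88% and 2.04%, LSK 6.46% and 4.84%, and CMP 4.63% and 4.50%. MEP, CFUE, ERY and CFUMK libraries lay between 0.917% and 2.88%, although CFUMK had among the longest peak lists.

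**Figure D5:**
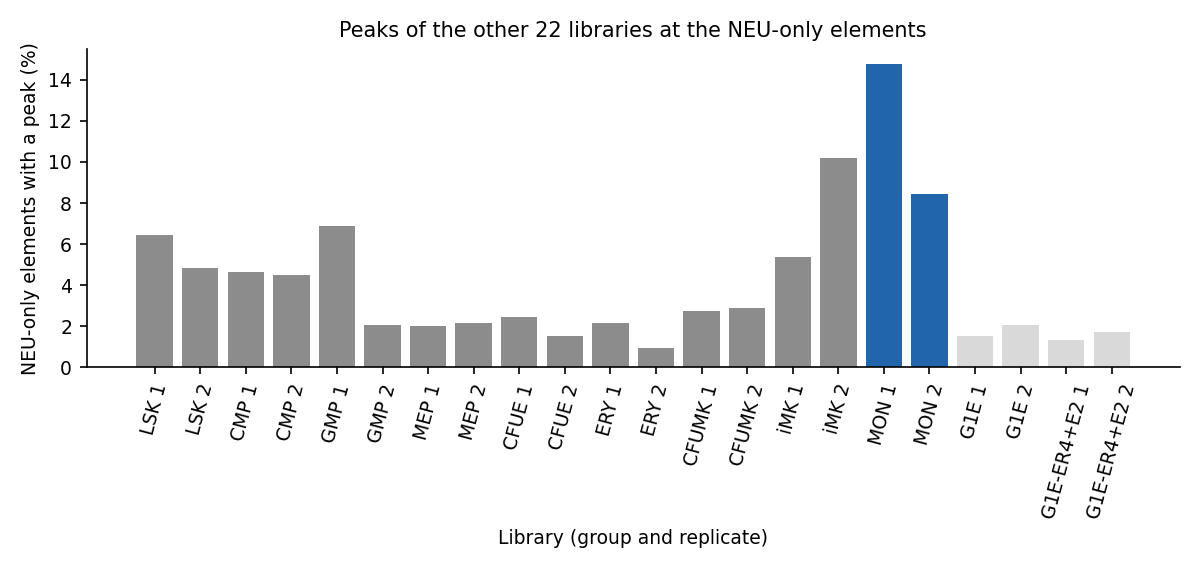
Share of the 2399 NEU-only elements (%) at which each of the other 22 libraries had a peak, with MON in blue and the cell lines in light grey. MON replicate 1 is the highest bar at 14.8% and ERY replicate 2 the lowest at 0.917%.

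The cell lines were not part of the choice. In a G1E line 40 members (1.67%) were called in both replicates, and the other groups' own elements were called there from 1.07% (GMP) and 1.31% (MON) to 5.99% (ERY), 6.61% (CFUE) and 12.4% (MEP). With NEU called from replicate 1 alone the share was 0.596%.

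A second reading outside the choice used 1 library per group to pick elements and the other to read them. Picked on replicate 1 libraries, 21506 elements were NEU-only, and 7.86% of them had a peak in NEU replicate 2. Picked on replicate 2 libraries, 9780 were, and 18.8% had a peak in NEU replicate 1, a mean of 13.3%. The held-out libraries of the other groups had peaks at 0.609% (CFUMK replicate 2) to 5.86% (MON replicate 1) of the same elements. The NEU library was the highest in both directions, but so was each other group's library for its own elements. The choice asked for no peak in the other groups, which in part fixes this order. Among groups, the same mean share ran from 8.90% in MON and 9.28% in CFUE to 33.9% in CFUMK and 37.4% in GMP, which put NEU in the lower part. Replicates were numbered in accession order. The library numbers of the marrow groups other than LSK form a pair of parallel runs that this order crosses for ERY, and exchanging the ERY libraries left the NEU mean at 13.3%.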

How the data were processed

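ATAC-seq libraries of 12 mouse populations, 2 biological replicates each, were read from the deposited peak lists. The authors mapped reads, trimmed to 30 bp, with Bowtie 0.12.8 (build mm10), left out those on the mitochondrial genome and unplaced contigs, and ran the HOMER peak caller separately for every library. SAMtools 1.6 and bedtools stand in the submitters' processing notes. The study says of its pipelines in general that reads could map to duplicated places, without repeating it for ATAC-seq. The deposited lists hold intervals and a score the authors did not name, taken from its even steps as scaled within each library; read totals were not used. Intervals count from 0 in the files and from 1 in the text.

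Members were found with Python 3.11.15, numpy 2.4.6, pandas 2.3.3 and scipy 1.17.1, and figures drawn with matplotlib 3.10.9. Gene starts and windows came from GENCODE mouse release 21 (GRCm38), and letters were searched on both strands of the same build. No list of artefact-prone regions was applied. The 22 gene lists hold 344 distinct genes, of which 1 (Ahsp) had no match. Genes were named by 4 rules: the 12 with the most members, the 4 of each list with the most plus any with a member at a start, the 12 highest ranked members, and the 5 fullest 100 kb bins. Names beyond these (Csf3r, Bach2, Cr2, Ms4a1, Pou2af1, Btla, Spib, Chst11, Neurl3, the lowest member and the V segments) were chosen after their values were seen. The members and lists were chosen with earlier results of these data known. The functions were tested on simulated peak lists. Alternatives changed the overlap, the peak lists, the windows, the groups and the libraries; the octamer share and the kappa locus count were added after seeing the data. Some members are not reported here by name.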

Additional observations from a re-analysis of the deposited data

How the results depend on the processing

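No paired analysis was possible because the labels give no replicate numbers, NEU stands outside the parallel runs of library numbers of 7 other groups, and no result comes from a fit. Asking for no peak in any of the 18 other primary libraries left 1237 NEU-only elements, a CEBP share of 7.65%, an EBF1 share of 2.80%, 2 neutrophil surface receptor genes and 0.970% called in a G1E line. Limiting each library to its highest scoring peaks, as many as the shortest list has, gave 4558 elements, a held-out share of 25.5%, CEBP 8.72%, EBF1 1.84% and 2.35% in a G1E line. Without the lower scoring 50% of each list there were 1537 elements, a held-out share of 53.8%, CEBP 10.7% and EBF1 2.75%. Promoters within 500 bp held 9.17% of the members. With windows of 50 kb, 8 receptor genes had a member, and within 1 kb of a start 0 receptor genes and 12 B cell identity genes did. Leaving out 1 library at a time gave 2055 to 26527 elements (11482 without NEU replicate 1, 26527 without NEU replicate 2, 2055 to 2377 otherwise), a held-out share of 12.9% to 13.6% (no value exists without a NEU library), promoters 9.70% to 15.4%, CEBP 6.47% to 8.63%, EBF1 0.939% to 2.48% (1.21% and 0.939% without NEU replicates 1 and 2), 22 to 26 B cell identity genes, 3 to 12 receptor genes (12 without either NEU replicate, 3 without MON replicate 1 or CFUMK replicate 1) and 0.596% to 1.70% in a G1E line (0.596% without NEU replicate 2). The octamer share was 11.5% with no peak in the 18, 6.58% with equal lists, 9.95% without the lower scoring 50%, and 2.05% to 9.0% over the left-out libraries (under 8.51% only without a NEU replicate). The kappa locus held 19 to 72 members over the left-out libraries. Peak calls give no depth per element, and the shorter NEU lists limit how many members can be found.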
